A study of Mus musculus with 12 samples.

Results

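The keratin genes were followed in mammary tumours from 6 mouse lines, each driven by an activated form of neu (ErbB2). Members were all array probes for genes whose name in the array annotation, or current symbol by accession, begins with Krt, leaving out the keratin-associated protein genes (Krtap). The rule found 53 probes of 42 genes among 28691 genes tested, and the brightest probe by mean intensity over all arrays stood for each gene. All 42 passed the filter on dim probes. Of these, 40 are keratins, namely 6 luminal and simple epithelial, 4 basal, 8 epidermal, 3 mucosal and corneal, 15 of hair, nail and inner root sheath, and 4 that were not placed in a class. Krtcap2 and Krtcap3 match by name only and are no keratins.

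All 6 strains were female mice with the transgene under the MMTV promoter, which is active in mammary epithelium and in other secretory epithelia such as the salivary gland. NDL25 (NDL2-5) is the parental strain with neu(ndl), a receptor activated by a deletion outside the membrane. As background, NYPD carries the same receptor without its tyrosine autophosphorylation sites, and YB, YC, YD and YE each have 1 site restored on that receptor. Tumours were taken after 6 weeks of tumour bearing, 10 per strain in 2 pools of 5, and no group of normal gland was used here. Every pool was set against a commercial mixed mouse reference RNA on 2 two-colour arrays with exchanged dyes. Which dye carried the tumour was read from milk and luminal genes on each array, since the labels used here do not settle it. Values are log2 tumour over reference, 1 per pool as the mean of its 2 arrays, and the comparisons ask which keratins differ by receptor.

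Keratins are the intermediate filament proteins of epithelia, built from obligate pairs of a type I and a type II chain. In the mammary gland Krt8 and Krt18, with Krt7 and Krt19, mark the luminal layer that lines ducts and alveoli, while Krt5 and Krt14 mark the basal layer with the myoepithelial cells. Krt1 and Krt10 belong to differentiating epidermis, and Krt6a, Krt6b and Krt16 to hair follicles and activated epidermis. The hair keratins belong to the cortex and cuticle of the hair shaft, and those of the inner root sheath to the sheath around it.

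Across the 24 arrays 97.28% to 98.86% of spots were well above local background, and 58 to 360 tumour spots per array were saturated. The 2 pools per strain limit the precision, and fewer cells of a type cannot be told apart from less RNA per cell in such bulk RNA. One pool stood apart for keratins: NYPD pool 2 was above NYPD pool 1 by more than 1 log2 unit for 18 of 42 members, against 0.945% of all genes. Pool pairs of the other strains differed by that much in either direction for 0 members in NDL25, YD and YE, for 2 in YB (Krt19, Krt6a) and for 1 in YC (Krt19). The shares of all genes differing so in either direction were 0.62% in NDL25, 0.683% in YD and 0.972% in YE. They were 1.82% in YB, 0.662% in YC and 1.54% in NYPD, so over all genes the YB pair differed more often than the NYPD pair. Results that rest on NYPD are therefore given with and without this pool. All NYPD arrays were processed by the scanner software on 1 day that no other strain shared, and for NYPD the effects of strain and session cannot be told apart. YB, NDL25 and YC pool 1 shared another session, and YD and YE the remaining one with the first array of YC pool 2.

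Between strains few keratins moved. A limma F test over the 6 strains called 3 of 42 members at an adjusted p under 0.05 (Benjamini-Hochberg over all genes), where 3.18% of all genes were called: Krt15, Krt7 and Krt34. In pairwise limma contrasts, which share the NDL25 or the NYPD pools, Krt19, Krt79 and Krt9 were called as well. Against NDL25, 3 members rose and 0 fell in NYPD (0.453% of all genes were called higher and 0.586% lower), and 3 rose and 0 fell in YB (3.12% higher and 0.795% lower). Against NYPD, YB had 2 members higher and 3 lower (4.02% higher and 1.08% lower), and YE had 4 lower (0.843% higher and 1.04% lower). YC, YD and YE against NDL25 gave 0 called members in limma (0.00697%, 0.00697% and 0% of all genes called), with 6, 2 and 1 at an unadjusted p under 0.05. YC and YD against NYPD also gave 0 (0.0174% and 0.0105% of all genes called), with 4 and 6 at that unadjusted level. The share of all genes at the unadjusted level is not given here, so nothing is read from those counts.

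**Figure D1:**
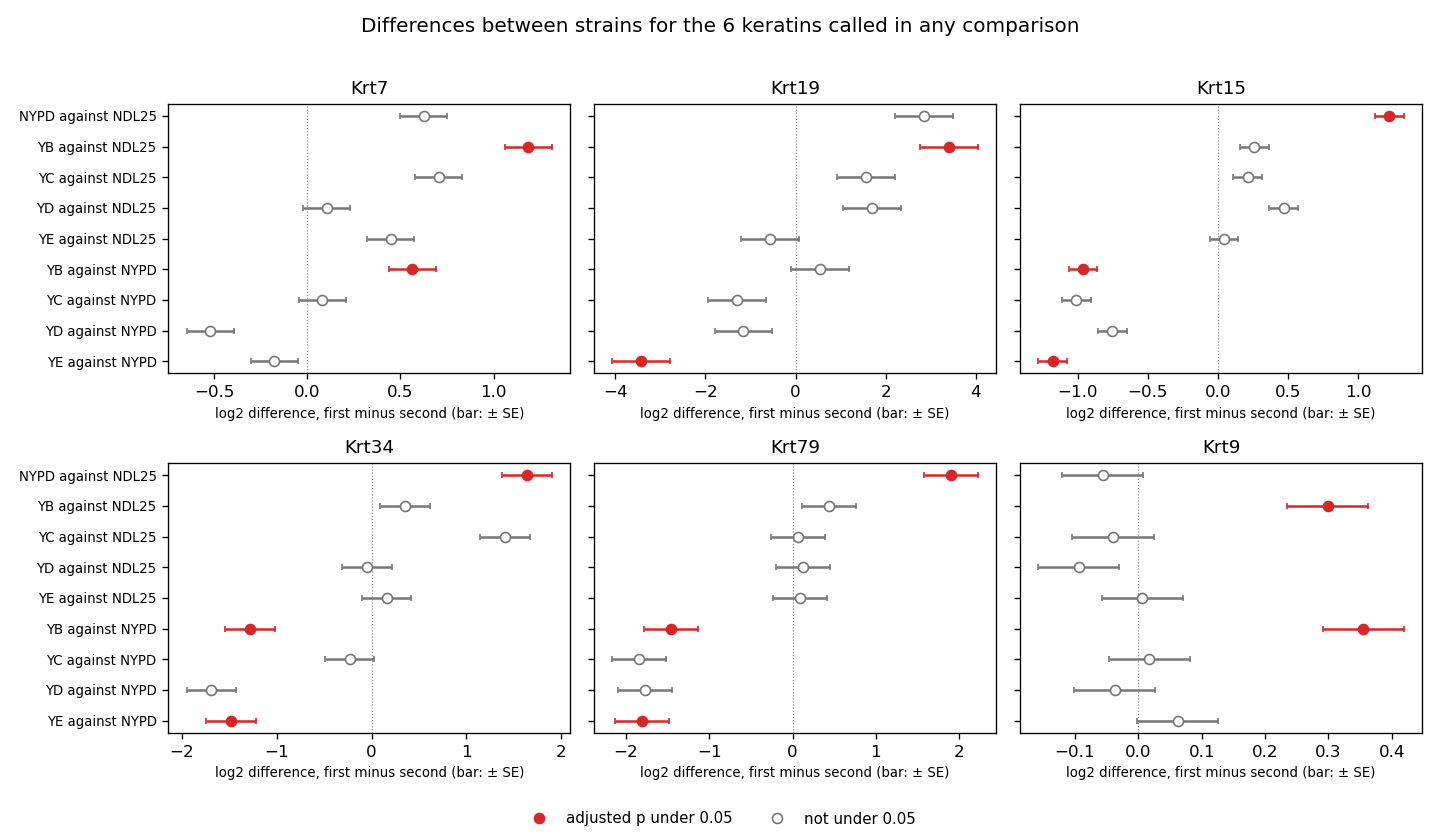
Log2 difference between strains, first minus second, for the 6 keratins called in any contrast, with the moderated standard error as the bar and 2 pools per strain. Filled points have an adjusted p under 0.05. Krt7 and Krt19 were called upward in YB and Krt15, Krt34 and Krt79 upward in NYPD, each against NDL25.

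Krt8 and Krt18, the paired filament proteins of simple epithelium, were above the reference in all 12 pools and passed no test between strains. Krt8 ran from 1.42 in NYPD pool 2 to 1.92 in YC pool 1, with a median of 1.64 (F test adjusted p = 0.399, limma). Its second probe gave 1.39 to 1.86. Krt18 ran from 1.41 in NDL25 pool 2 to 1.86 in NYPD pool 1, with a median of 1.58 (adjusted p = 0.393). Krt18 spots were saturated in the tumour channel on all 4 arrays of NDL25 and of YB, on 2 of 4 in YC, YD and YE and on 1 of 4 in NYPD. Every strain mean of Krt18 is therefore a lower bound, most so in NDL25 and YB, and its strains cannot be ordered. Krt8 spots were saturated on 1 of 4 arrays in YB and in YD.

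Krt7, the type II keratin of ducts and other simple epithelia, was highest in YB. Its log2 ratio was 2.52 and 2.26 in the YB pools, 1.80 and 2.02 in YC, 1.70 and 1.96 in NYPD, 1.67 and 1.64 in YE, 1.22 and 1.40 in YD, and 1.24 and 1.17 in NDL25. Both YB pools lay above the other 10, while YD and NDL25 overlapped at the low end. The YB mean of 2.39 ± 0.19 (SD, n = 2) was 2.28-fold that of NDL25 at 1.21 ± 0.04, a difference of 1.19 ± 0.13 (SE, adjusted p = 0.00501, limma), called in 24 of 26 alternative settings. All pools of YB and NDL25 were processed in the same session, so a fit within it could not change the difference. Its adjusted p there was 0.176 on fewer pools. With session as a block the adjusted p was 0.0197. The F test (adjusted p = 0.0204) lost its call without either NDL25 pool, either YD pool or YE pool 2 (0.0509 to 0.0658). The call was also lost on the deposited ratios and over both probes. Session as a fixed block and single sessions, all fitted without the NYPD pools, lost it too. YB also exceeded NYPD by 0.56 ± 0.13 (adjusted p = 0.0477), a call lost on leaving out any of the 12 pools (0.0545 to 0.167). On the deposited ratios that difference was 0.02 (adjusted p = 0.96). The second Krt7 probe gave 2.75 and 2.55 in YB against 1.30 and 1.39 in NDL25, but only 0.77 in YC pool 1, and its F test had an adjusted p of 0.293.

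Krt19, the smallest type I keratin and partner of Krt7 and Krt8 in ducts, had the widest range over pools of the luminal keratins, 4.58 log2 units. It stood at 1.48 and 0.29 in YB, 0.19 and 0.49 in NYPD, -1.09 and -0.54 in YD, -1.99 and 0.07 in YC, -2.23 and -2.80 in NDL25, and -3.07 and -3.09 in YE. All pools of YB and NYPD lay above the reference and both pools of NDL25 and YE far below it. The YC pools differed by more than 2 log2 units from each other. YB exceeded NDL25 10.6-fold (3.40 ± 0.64, SE, adjusted p = 0.0318, limma), and YE was below NYPD by 3.42 ± 0.64 (adjusted p = 0.0453). A fit within the shared session uses the same YB and NDL25 pools, so the difference stays at 3.40 by design. Its adjusted p there was 0.2. With session as a block the adjusted p was 0.0364. The YB call was lost without either pool of NDL25, YD, YE or NYPD and without YB pool 1 (0.0527 to 0.165). The YE call was lost without either pool of NDL25, YD, YE or NYPD (0.072 to 0.227) and on the deposited ratios. NYPD against NDL25, at 2.86 ± 0.64, did not pass (adjusted p = 0.086), nor did the F test (0.0532).

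Krt23, a type I keratin of simple and glandular epithelia, was above the reference in every pool, from 2.94 in YC pool 2 to 4.37 in YB pool 2. Its means were 4.15 ± 0.32 in YB, 3.82 ± 0.13 in NDL25, 3.81 ± 0.42 in YE, 3.55 ± 0.19 in NYPD, 3.49 ± 0.09 in YD and 2.98 ± 0.06 in YC (F test adjusted p = 0.109). Both YC pools of Krt23 were below the other 10, which overlapped between strains. Krt20, the keratin of intestinal and urothelial surface cells, was below the reference in all pools, from -3.07 to -2.58 (adjusted p = 0.782).

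**Figure D2:**
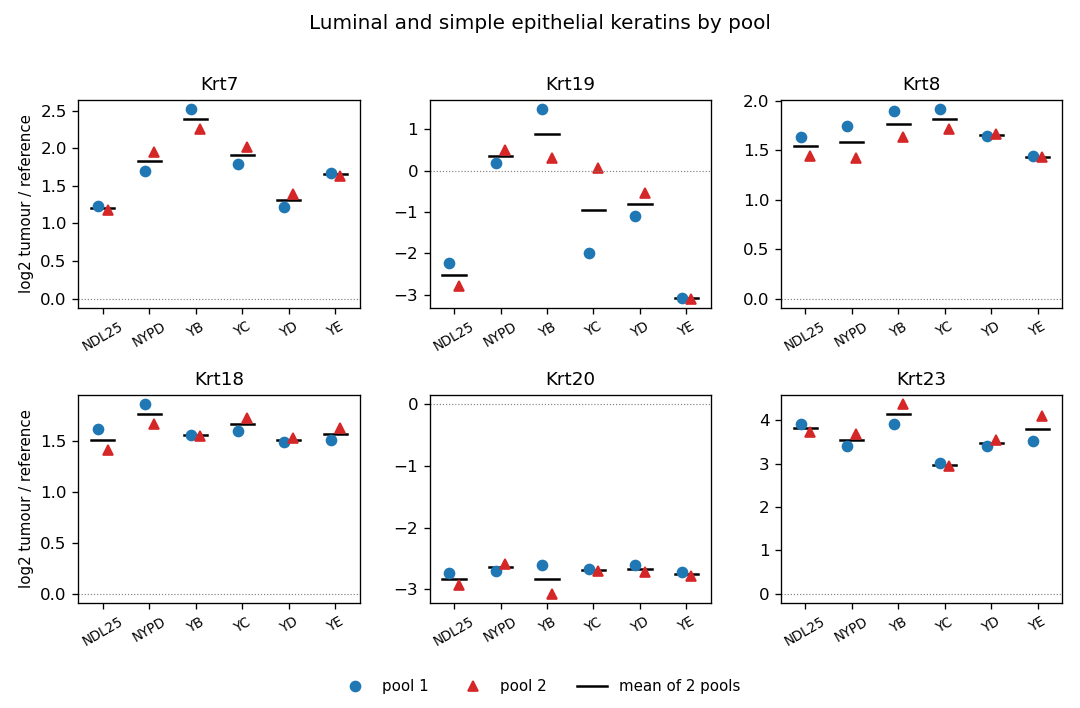
Log2 tumour over reference of the 6 luminal and simple epithelial keratins in every pool, by strain, with the mean of the 2 pools as a bar. Each panel has its own vertical scale. Krt7 and Krt19 are highest in YB, Krt19 is lowest in YE, and Krt8 and Krt18 stay between 1.41 and 1.92 throughout.

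Krt9 passed in YB as well, at a small size. Krt9, the type I keratin of palm and sole epidermis, was 0.29 and 0.46 in the YB pools and from -0.03 to 0.10 in the other 10. The differences were 0.30 ± 0.06 against NDL25 (adjusted p = 0.0471, limma) and 0.35 ± 0.06 against NYPD (adjusted p = 0.0239). The first was kept in only 5 of 26 alternative settings, being lost on leaving out any pool except YB pool 1 (0.062 to 0.21), and the second in 14 of 24, being lost without YB pool 2 or either pool of YC, YD or NYPD (0.0508 to 0.0834).

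The 2 YB pools also carried high levels of salivary and oral genes. Of that marker list 8 of 13 genes passed the F test, and its mean log2 ratio was 2.98 and 3.10 in YB against 0.47 to 0.71 in the other 10 pools. Prpmp5, a proline-rich salivary protein gene, read 5.98 and 6.10 in YB and 0.02 to 0.45 elsewhere, whereas Bpifa1, chosen after its values were seen, stayed between -0.09 and 0.14 in all pools. Tgm3, a transglutaminase of hair and oral epithelium from the cornified list, read 2.71 and 2.54 in YB and 0.13 to 0.57 elsewhere (F test adjusted p = 0.000601, limma). The mean of the fibroblast and matrix list was 0.40 and -0.47 in YB and -1.51 to 0.24 elsewhere. The part of these genes in the YB differences of Krt7, Krt19 and Krt9 was not tested.

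Among the basal keratins only Krt15 differed by strain. Krt15, the type I keratin of basal and stem-like cells of stratified epithelia, stood at 0.49 and 0.43 in the NYPD pools and between -0.89 and -0.19 in the other 10. Both NYPD pools lay above all others, and here pool 2 was not the higher. NYPD exceeded NDL25 2.33-fold (1.22 ± 0.10, SE, adjusted p = 0.0111, limma), and YB and YE were below NYPD by 0.96 ± 0.10 (adjusted p = 0.00533) and 1.18 ± 0.10 (0.0105). The F test had an adjusted p of 0.0103. YC and YD were below NYPD by 1.01 ± 0.10 and 0.75 ± 0.10, with adjusted p of 0.0546 and 0.0627. Without NYPD pool 2 the first 3 differences were 1.25, -0.99 and -1.21, with pool 1 alone for NYPD and its spread taken from the other strains. The NDL25 call was lost without NDL25 pool 1 (0.0804) and the YE call without YE pool 2 (0.0887). Since every NYPD array belongs to 1 session, the F test with session as a block says nothing of NYPD (adjusted p of Krt15 = 0.543).

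Trp63, the basal lineage factor of stratified epithelia and myoepithelium, was the 1 gene of 11 on the list of basal and myoepithelial markers other than keratins to pass the F test (adjusted p = 0.0204). It read 1.59 and 1.44 in NYPD, 0.43 and 1.04 in YB and -0.14 to 0.58 in the other pools. The mean of that list was -0.06 and 0.10 in NYPD and -0.55 to 0.34 elsewhere, and Acta2, the smooth muscle actin of myoepithelium, chosen after its values were seen, was between -2.04 and -0.70 in all pools.

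Krt5, Krt14 and Krt17 did not pass any test and shared another pattern, in which NYPD pool 2 alone was high. Krt14, the type I partner of Krt5 in basal cells, was 2.01 in NYPD pool 2 and -0.16 in NYPD pool 1, with the other 10 pools between -0.55 and 0.51 (F test adjusted p = 0.467, limma). Krt5 was 1.73 in NYPD pool 2 and 0.20 in pool 1, with the other 10 between 0.03 and 0.59 (0.597). Krt17, a keratin of appendages and activated epithelium, was 1.59 against 0.36, and 0.42 to 0.66 in the other 10 (0.774). A fit with 1 NYPD pool has no spread for NYPD, and pool 2 was set apart because its keratins were high. No call for these 3 genes is therefore read from fits with either NYPD pool alone.

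**Figure D3:**
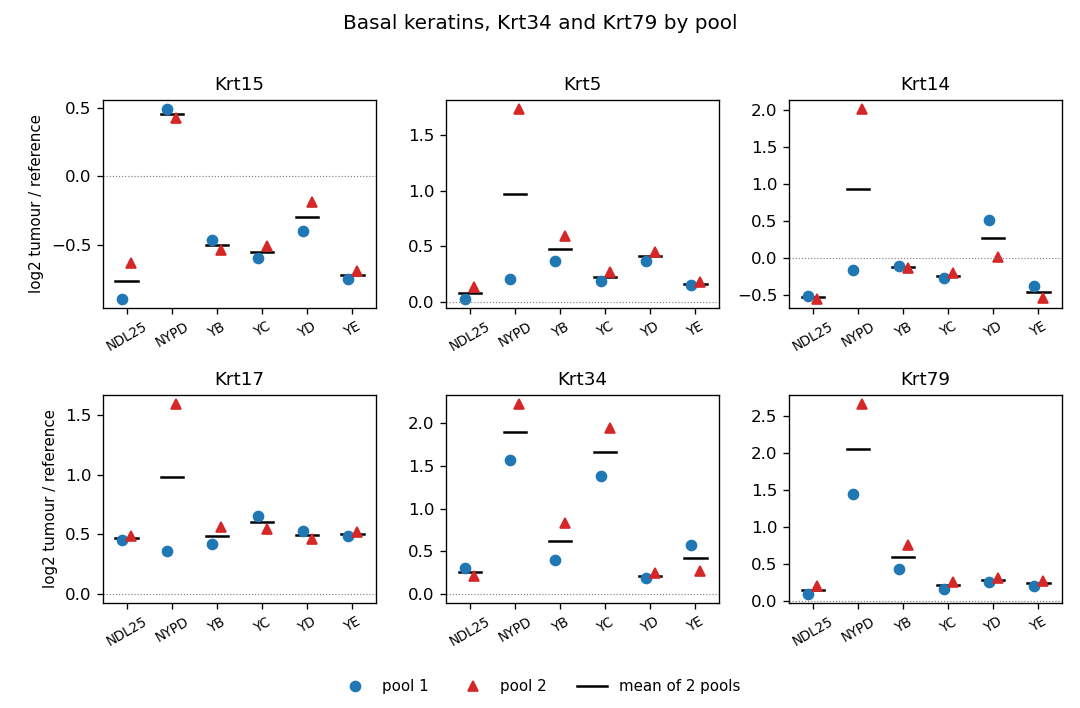
Log2 tumour over reference of the 4 basal keratins, Krt34 and Krt79 in every pool, by strain, with the mean of the 2 pools as a bar and a separate vertical scale per panel. Krt15 is high in both NYPD pools, Krt5, Krt14 and Krt17 in NYPD pool 2 only, and Krt34 in both pools of NYPD and of YC.

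Krt79 and Krt34 were high in both NYPD pools and higher still in pool 2. Krt79, a type II keratin of hair canal and sebaceous duct, was 1.45 and 2.66 in NYPD and 0.10 to 0.75 in the other 10 pools. It was 3.73-fold above NDL25 in NYPD (1.90 ± 0.32, SE, adjusted p = 0.047, limma), and YB and YE were lower than NYPD by 1.46 ± 0.32 (0.0457) and 1.81 ± 0.32 (0.0413). The F test had an adjusted p of 0.0645. Without NYPD pool 2 the 3 differences were 1.29, -0.85 and -1.21. Pool 1 then stood alone for NYPD, with its spread taken from the other strains, so a call there is not given. Against NDL25 the call was lost without any 1 pool of NDL25, YC, YD or YE (0.0769 to 0.218), and the other 2 calls without the same pools (0.0655 to 0.214), for YB without either YB pool too.

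Krt34, a type I hair cortex keratin, was 1.57 and 2.23 in NYPD, 1.38 and 1.95 in YC, 0.40 and 0.83 in YB, 0.57 and 0.26 in YE, 0.31 and 0.21 in NDL25 and 0.18 and 0.24 in YD. NYPD and YC overlapped, and both lay above the 8 pools of the other 4 strains. NYPD exceeded NDL25 by 1.64 ± 0.26 (adjusted p = 0.0403), and YB and YE were below NYPD by 1.28 ± 0.26 (0.0348) and 1.48 ± 0.26 (0.04). YC exceeded NDL25 by 1.41 ± 0.26, which did not pass (adjusted p = 0.112). The F test had an adjusted p of 0.034 in limma. Without NYPD pool 2 the 3 differences were smaller, at 1.31, -0.96 and -1.16. As for Krt79, pool 1 then stood alone for NYPD, so a call there is not given. The 3 contrasts were lost without any 1 pool of NDL25, YD or YE, and that of YB without either YB pool as well. The F test was lost without any 1 pool of NDL25, YC, YD or YE.

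The other epidermal keratins passed no test on the probes used. Krt16 was 1.78 in NYPD pool 2 and -0.20 to 0.02 in the other 11 pools (F test adjusted p = 0.651, limma). Krt6a was 1.93 in NYPD pool 2, 1.25 in YB pool 1 and -0.06 to 0.32 in the other 10 (0.642). Krt10 was 1.58 in NYPD pool 2, 1.32 in YD pool 2 and 0.20 to 0.91 in the other 10 (0.612). Krt1 stayed between -0.08 and 0.31 (0.432), Krt2 between -0.10 and 0.22 (0.605) and Krt6b between -0.07 and 0.16 (0.747).

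Several of these genes had a second, dimmer probe that disagreed. The second Krt10 probe read 2.43 and 3.17 in YB against -0.15 to 0.84 in the other 10 pools, and in a fit of every probe on its own it was higher in YB than in NDL25 by 2.78 ± 0.37 (adjusted p = 0.0124, limma, 3.12% of all 40847 probes called), whereas the brighter probe differed by 0.14 (adjusted p = 0.916). The second probes of Krt1 and Krt6b read 1.34 and 1.72 in NYPD pool 2, against at most 0.20 and 0.63 in the other 11 pools. For Krt36 the second probe read 0.98 there against 0.50 on the brighter. For these genes the level depends on the probe, and which transcript each probe reports was not tested.

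**Figure D4:**
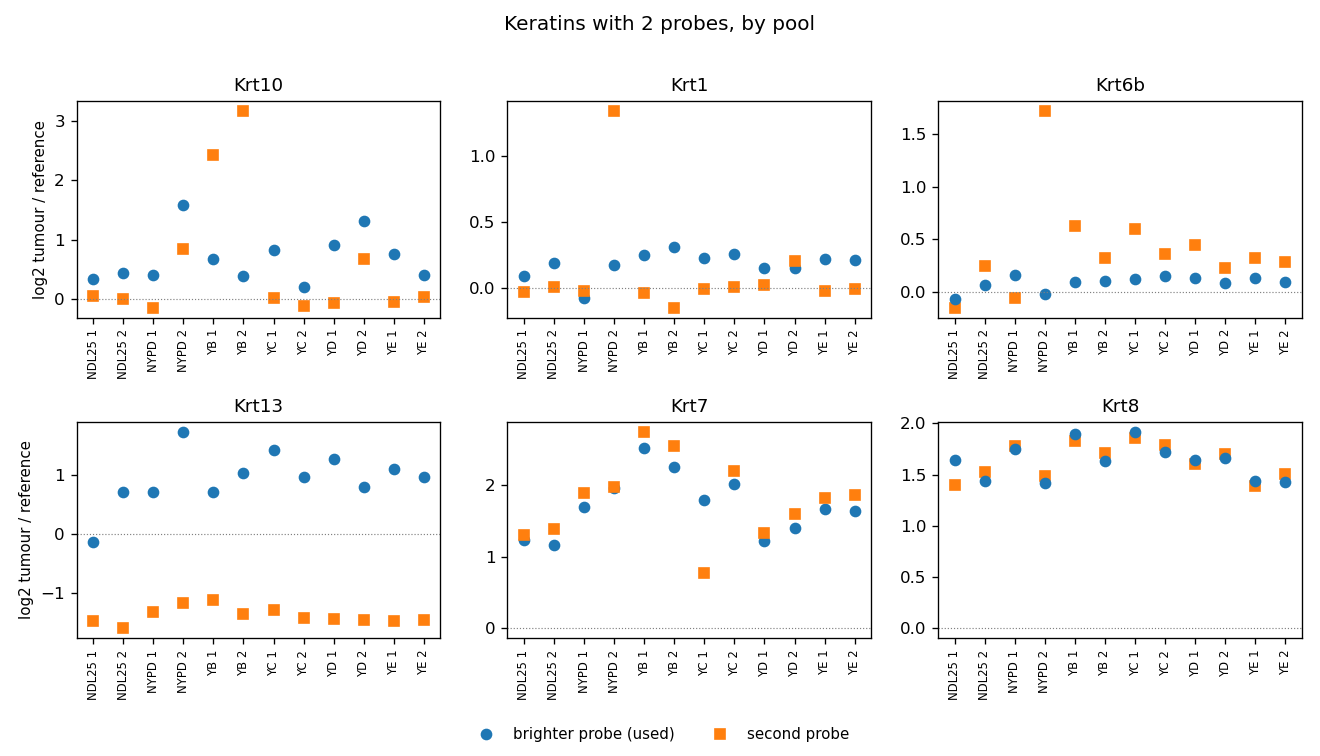
Log2 tumour over reference by pool for 6 keratins with 2 probes, the brighter probe as circles and the second as squares, each panel on its own scale. The probes of Krt8 run together, those of Krt10 part in YB, those of Krt1 and Krt6b in NYPD pool 2, and those of Krt13 differ in every pool.

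The mucosal and corneal keratins gave no strain difference. Krt13, the type I keratin of oral and oesophageal lining, ran from -0.14 in NDL25 pool 1 to 1.74 in NYPD pool 2 (F test adjusted p = 0.524), while its second probe was between -1.61 and -1.12 in all pools. Its partner Krt4 stayed between -0.08 and 0.13 (0.359), and Krt12 of the cornea between -0.19 and 0.06 (0.784). In the YB pools Krt4 read -0.03 and -0.08.

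Most hair, nail and inner root sheath keratins were highest in NYPD pool 2. Of the 15, 13 had their highest value in that pool, where 10.2% of all genes did, and 8 stood there by more than 1 log2 unit above the next pool, where 0.352% of all genes did. Over all 42 members these counts were 24 and 13. Pool 2 exceeded pool 1 by a median of 2.13 log2 units over the hair keratins, against 1.38 over the basal, 0.72 over the epidermal and 0.18 over the luminal ones and -0.01 over all genes tested.

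Krt33a, a hair cortex keratin, was 4.11 in NYPD pool 2 and -0.18 to 0.23 in the other 11 pools. Krt27 and Krt25, type I keratins of the inner root sheath, were 3.82 and 3.75 there, against -0.02 to 0.35 and -0.04 to 0.37. Their type II partner Krt71 was 2.31 against 0.18 to 0.52. Krt81 and Krt86, type II keratins of the hair cortex, were 3.07 and 2.87 against -0.30 to 0.33 and -0.52 to 0.30. Krt31 and Krt33b of the cortex were 2.40 and 1.79 against -0.09 to 0.12 and -0.52 to -0.25. Krt32, Krt82, Krt75 and Krt36 were between 0.50 and 0.73 there, each also above the other 11 pools, and only Krt35 and Krt84 were not highest in it. Both arrays of the dye-swap pair carried the rise, with 3.92 and 4.30 for Krt33a, 3.37 and 4.27 for Krt27 and 2.75 and 3.40 for Krt81.

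The raw tumour intensity, averaged over the pair, was 9420 for Krt27, 4950 for Krt33a and 2470 for Krt25 in NYPD pool 2, against 312, 142 and 45.4 in NYPD pool 1. Krt25 was well above local background on 17 of 24 arrays. Where tumour and reference signals are both this low a ratio near 0 says little of the level. Since pool 1 did not share the rise, no hair keratin but Krt34 passed the F test, the adjusted p ranging from 0.596 for Krt33a to 0.646 for Krt25 among the 3 highest. Both NYPD pools were processed in the same session, so the pools differ within it.

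**Figure D5:**
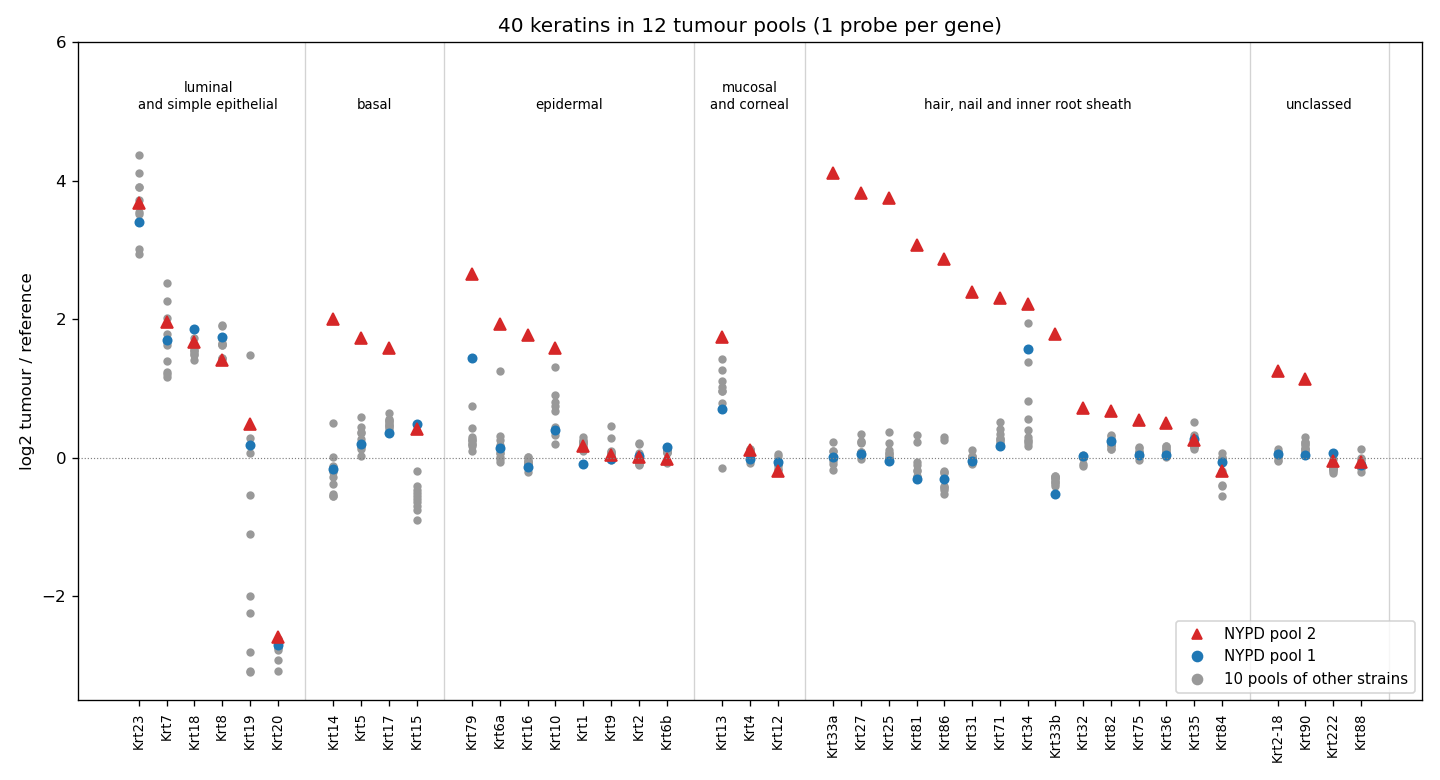
Log2 tumour over reference of the 40 keratins, 1 probe each, in 12 pools, by class and ordered within class by the value in NYPD pool 2. Triangles mark NYPD pool 2, blue circles NYPD pool 1 and grey circles the 10 pools of the other strains. The triangles stand clear of all other points for 8 of 15 hair keratins and lie among or close to them for the luminal keratins.

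Promoter sequences in RefSeq (GRCm38.p6) were found for 27 of the 42 members, 14 on chromosome 11, where most type I genes lie, and 11 on chromosome 15, where the type II genes and the type I gene Krt18 lie, the other 2 being Krtcap2 and Krtcap3. The 250 bases before the start site are printed for 6 hair keratins that were high in NYPD pool 2, 5 of the type I cluster and 1 of the type II cluster, to show what such genes have in front of them. Among these, Krt34 was also high in NYPD pool 1 and in both YC pools. All 6 lie on the minus strand, and the windows are chr11:99322952-99323201 for Krt25, chr11:99351119-99351368 for Krt27, chr11:100050552-100050801 for Krt31, chr11:100029869-100030118 for Krt33b, chr11:100041555-100041804 for Krt34 and chr15:101743098-101743347 for Krt71. Sequences run 5′ to 3′ along the gene, and capitals mark matches to TATAAA, the core of a TATA box, and to CTTTGAA, a core of LEF and TCF factor motifs, both searched on both strands with no overlap between them.
Krt25: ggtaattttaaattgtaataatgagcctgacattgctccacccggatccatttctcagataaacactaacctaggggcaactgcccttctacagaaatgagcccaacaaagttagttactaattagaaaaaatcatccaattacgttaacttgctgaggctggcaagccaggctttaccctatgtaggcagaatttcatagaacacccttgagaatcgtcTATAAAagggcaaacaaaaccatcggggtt
Krt27: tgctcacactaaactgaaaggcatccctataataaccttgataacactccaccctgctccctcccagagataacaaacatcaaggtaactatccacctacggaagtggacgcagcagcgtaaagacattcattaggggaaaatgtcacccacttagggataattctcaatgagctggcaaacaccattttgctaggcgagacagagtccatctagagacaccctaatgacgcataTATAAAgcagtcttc
Krt31: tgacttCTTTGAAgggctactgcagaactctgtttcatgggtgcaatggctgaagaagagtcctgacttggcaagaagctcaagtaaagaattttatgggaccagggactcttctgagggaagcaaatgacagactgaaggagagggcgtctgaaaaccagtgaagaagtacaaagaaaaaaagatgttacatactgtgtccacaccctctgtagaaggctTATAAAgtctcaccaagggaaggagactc
Krt33b: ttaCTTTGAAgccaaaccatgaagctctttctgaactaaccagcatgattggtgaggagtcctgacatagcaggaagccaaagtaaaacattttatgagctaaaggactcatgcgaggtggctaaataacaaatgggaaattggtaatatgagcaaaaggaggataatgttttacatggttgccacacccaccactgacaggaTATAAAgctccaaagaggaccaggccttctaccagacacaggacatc
Krt34: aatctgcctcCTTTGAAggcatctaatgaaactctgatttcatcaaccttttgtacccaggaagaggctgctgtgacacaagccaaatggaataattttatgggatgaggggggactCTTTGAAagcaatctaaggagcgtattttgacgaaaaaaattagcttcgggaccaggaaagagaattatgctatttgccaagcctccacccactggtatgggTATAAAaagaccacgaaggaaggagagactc
Krt71: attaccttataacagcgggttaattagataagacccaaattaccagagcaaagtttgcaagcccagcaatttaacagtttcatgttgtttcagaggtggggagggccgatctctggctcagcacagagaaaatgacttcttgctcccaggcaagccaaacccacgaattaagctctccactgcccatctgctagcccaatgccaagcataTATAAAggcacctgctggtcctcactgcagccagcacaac

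TATAAA was found in 8 of the 11 hair keratin promoters in the table, against 12.4% of 32851 promoters of all genes. In Krt25, Krt31 and Krt34 it began 30, 29 and 31 bases before the start site, in Krt27 15, in Krt71 40 and in Krt33b 47. CTTTGAA was found in 4 of the 11 (Krt31, Krt32, Krt33b and Krt34), against 4.46% of all promoters, and the match lay 240 to 247 bases before the start in each, with a second one at 133 in Krt34. Krt32, with both letter strings, reached only 0.73 in NYPD pool 2, and Krt84, with TATAAA on the other strand at 206, read -0.19. Neither string was found in the windows of Krt5, Krt14, Krt7 or Krt8. Outside the hair class TATAAA was found in Krt10, Krt12 and Krt20, where it began 26, 29 and 29 bases before the start site. A match is a description of letters, not of a bound site.

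Of the marker list for cornified epidermis and hair follicle, 17 of 21 genes were tested, and their mean log2 ratio was 0.82 in NYPD pool 2 against -0.35 to 0.12 in the other 11 pools. Of the 17, 13 had their highest value in NYPD pool 2, where 10.2% of all genes did. More than 1 log2 unit above pool 1 were 6 of the 17, against 0.945% of all genes. Chosen after their values were seen, Dmkn read 2.53, Dsg1a 2.11, Sprr1a 1.96 and Padi3, the hair follicle peptidylarginine deiminase, 1.46 in that pool. Lor and Flg, genes of the cornified layer on the same list, read 0.18 and 0.25 there, against 0.18 and 0.05 in NYPD pool 1. The skeletal muscle list had a mean of 0.61 in NYPD pool 2 and -0.58 in pool 1, with -0.79 to 0.67 elsewhere. The part of such tissue in the keratin values of this pool was not tested.

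Among the unclassed members Krt2-18 and Krt90 were also highest in NYPD pool 2, at 1.25 and 1.14, against at most 0.13 and 0.31 elsewhere. Krt222 and Krt88 stayed between -0.21 and 0.13. Krtcap3, a membrane protein matched by name only, was 2.72 to 3.54 in all pools, and Krtcap2, a subunit of the oligosaccharyltransferase complex, -0.28 to 0.00.

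Genes that anchor keratin filaments and other filament proteins were followed as lists. The F test called 3.18% of all genes, and in lists this short a count of 0 is close to that share. The share of all genes at the unadjusted level is not given here. Of 20 plakin, desmosome and hemidesmosome genes 0 passed the limma F test, with 2 at an unadjusted p under 0.05 (Macf1, Pkp1), and their mean log2 ratio lay between 0.50 and 0.98 in the 12 pools. In NYPD pool 2, 2 of these 20 (Evpl and Ppl, plakins of the cornified envelope) were more than 1 log2 unit above pool 1, where 0.945% of all genes were. In that pool 4 of 20 (Plec, Evpl, Jup and Col17a1, chosen after their values were seen) had their highest value, where 10.2% of all genes did. Of 16 other intermediate filament genes 0 passed, with 4 at that level (Lmna, Nefl, Synm, Vim), and their mean lay between -0.56 and -0.24. The median difference of NYPD from NDL25 was 0.02 over the anchoring genes, -0.03 over the other filament genes, 0.56 over the 40 keratins and -0.01 over all genes tested. Without NYPD pool 2 these medians were -0.06, -0.07, 0.05 and -0.01. For YB against NDL25 these medians were 0.00, 0.06, 0.07 and -0.01. Epithelial markers other than keratins had means of 2.08 to 2.53 in the 12 pools and 0 of 14 genes past the F test (2 at the unadjusted level, Cldn7 and Elf3). Other cell types were followed by their own lists. Of the milk and secretory list 5 of 11 genes passed the F test, of luminal regulators 0 of 10, of fibroblast and matrix genes 0 of 10, of adipocyte genes 1 of 8, of leukocyte genes 1 of 10, of skeletal muscle genes 0 of 8 and of endothelial genes 0 of 6, with 8, 3, 6, 6, 8, 0 and 5 at the unadjusted level. All 11 milk genes, 9 of the 14 epithelial markers and 3 of the 10 luminal regulators also served to read the tumour dye, so that the levels of these lists above the reference are no finding. The part of these cell types in the keratin differences was not tested.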

How the data were processed

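Two-colour Agilent arrays of 12 tumour pools were used, 24 in all. Scanner intensities were deposited by the authors as Feature Extraction output, per the file headers, and a deposited table of log2 ratios per pool served as an alternative. Its scale and direction are not stated in the sources used here; its columns correlated with the scanner ratios at 0.983 or above. The log10 ratios of the scanner software, deposited in the same files per the file headers, served only as a check. The submitters' processing notes name R 2.3.0, RMA and limma.

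Mean signals were background-corrected (normexp, offset 50) and loess-normalised within arrays in limma 3.58.1 (R 4.3.3), turned to tumour over reference, and averaged per dye-swap pair. The tumour dye was read from luminal and milk probes, and Afp ran the opposite way on all 24 arrays. Of 41174 probes, 2 were dropped for spot marks, 325 for being well above background on under 4 arrays, and 12156 in favour of a brighter probe for the same gene. Symbols came by accession for 20716 probes, by symbol for 5039, by synonym for 5279 and from the file for 10140. A limma model with a mean per strain (residual df 6, prior df 1.76, median SE 0.109) gave an F test and 9 contrasts, with Benjamini-Hochberg adjustment over 28691 genes and a threshold of 0.05. On data simulated for YB against NDL25 with 28691 genes, 65 of 100 genes moved by 1 log2 unit and 92 of 100 moved by 2 were recovered, with 10 false calls.

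Members and lists were chosen with earlier results of these data known. Planned to be described singly were keratins called in any test and a set list of luminal, basal, epidermal and mucosal keratins. The other members named were outside that plan and were described after their values were seen. Among these were the hair keratins except Krt34, and Krt2, Krt12, Krt20 and Krt23. From other lists, counts and at most 3 genes with the smallest F test p were taken, with exceptions named in the text as chosen after their values were seen. Alternatives covered normalisation, filter, probe choice, saturation, session, pool number, single arrays and left-out pools. Promoters were read from a RefSeq table (GRCm38.p6).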

Additional observations from a re-analysis of the deposited data

How the results depend on the processing

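With 2 pools per strain, leaving out 1 pool moved most counts of called keratins. The shares of all genes called in the alternative settings are not given here. The counts below therefore show only how far the calls depend on the setting. The counts ranged from 1 to 19 for the F test, 0 to 20 for NYPD against NDL25, 1 to 3 for YB against NDL25, 1 to 20 for YB against NYPD, 0 to 19 for YC and for YD against NYPD, and 0 to 20 for YE against NYPD. YC, YD and YE against NDL25 stayed at 0 in limma. For the F test and the contrasts that include NYPD, the high ends came without NYPD pool 1, where pool 2 stood alone for NYPD and was assumed to vary like the other strains. The same assumption holds for pool 1 where pool 2 was left out. Without NYPD pool 2 the counts were 5 for the F test, 2 for NYPD against NDL25, 1 for YB against NDL25, 2 for YB, 1 for YC and 2 for YE against NYPD. No called keratin changed direction in any alternative run.

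Session as a fixed block left 0 keratins in the F test, as did session 1 alone and session 2 alone, and session 2 alone left 0 for YB against NDL25. Session as a random block gave 6 in the F test, 5 for NYPD against NDL25, 1 for YC against NYPD and 2 for YD against NYPD. Its correlation within session was negative, at -0.119. NYPD has a session of its own, so this block cannot part session from strain for NYPD, and nothing is read from these counts. The 2 strains alone gave 0 for NYPD and YB against NDL25 and for YB and YE against NYPD. Median centring in place of loess gave 2 for YB against NYPD, and the deposited ratios gave 2 each for YC and YD against NYPD. The first array of each pair gave 5 in the F test, 1 for YC against NDL25, 2 for YB and 1 for YC against NYPD, and the second gave 1 for YC and 2 for YE against NYPD. Each probe on its own, chosen after seeing the data, gave 1 for YC against NYPD. The cause was not tested, apart from the fewer samples in single sessions and pairs of strains. The pool numbers were taken as names only: the correlation of pool 1 minus pool 2 between strains ran from -0.17 to 0.71 over the pairs of strains, highest for YC with YD (0.71) and YD with YE (0.61), and not above 0.1 in every pair. With pool number as a replicate block the counts were 3 in the F test, 3 for NYPD and 2 for YB against NDL25, and 4 for YB and 3 for YE against NYPD; it ended the calls of Krt9 for YB against NDL25 (0.0598), Krt7 for YB against NYPD (0.0584) and Krt19 for YE against NYPD (0.0513) and no other. The fits with session as a fixed block and of session 1 or session 2 alone left out the NYPD pools, also in the F test. They say nothing of NYPD and were not run for NYPD contrasts. The 2 strains alone were not run for the F test.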

Other observations

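The keratin-associated protein genes (Krtap), whose products fill the matrix between hair keratin filaments, were measured for 38 genes outside the keratin rule. Of these, 30 had their highest value in NYPD pool 2 and 16 stood there by more than 1 log2 unit above the next pool, where 10.2% and 0.352% of all genes did. Krtap3-2 read 3.33, Krtap9-3 3.32 and Krtap3-3 2.88 log2 tumour over reference in that pool, against at most 0.20, 0.02 and -0.01 in the other 11. The 5 keratins reached by synonym only, and so outside the rule, were looked at after their values were seen. Krt28 and Krt26 of the inner root sheath read 3.74 and 1.72 in NYPD pool 2, against at most 0.32 and 0.01 elsewhere. Krt80 read 1.66 there against -2.59 to -0.67 elsewhere, while Krt42 and Krt76 stayed between -0.18 and 0.06 in all pools.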
